A study of Mus musculus with 100 samples.

Results

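The genes described here are those whose maternal and paternal alleles could be compared by read counts in TX 2i ESCs, a female mouse ESC line from a BL6 mother and a CAST father. Members were taken from 11 autosomes, chromosomes 2, 3, 5, 7, 9, 10, 13, 14, 17, 18 and 19, and needed at least 20 reads assignable to an allele in each of the 3 libraries. This gave 4841 genes of 25965 in the table, or of 14327 on these chromosomes. Of the 9486 genes of these chromosomes that were left out, 6416 had no allelic read in any TX 2i ESC library. At the minimum itself, 42 members had exactly 20 reads in their shallowest library and 52 genes missed it by 1 read.

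The study sequenced RNA from 6 groups of 3 biological replicates to follow imprinting in reprogrammed cells. TX 2i ESCs are the TX1072 line, grown with LIF and with CHIR99021 and PD0325901, the inhibitors of GSK3 and MEK that are together called 2i. The other groups were Female MEFs (mouse embryonic fibroblasts) and 4 iPSC lines, female (F KSR2, F KSR4) or male (M KSR3, M KSR5), each a picked colony reprogrammed from MEFs of its sex in medium with knockout serum replacement (KSR). Their mothers were i4F-BL6, C57BL/6J animals with a doxycycline-inducible reprogramming cassette, their fathers were CAST, and the MEFs came from single E13.5 embryos, so that Female MEFs and both female lines go back to 1 embryo. The maternal allele is therefore BL6 and the paternal allele CAST in every library. With 1 direction of the cross, a difference between strains and an effect of parental origin cannot be told apart, and TX 2i ESCs are 1 line, so its replicates do not sample other ESC lines of the cross.

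In a hybrid of distant strains, most genes are read from both chromosomes, and sequence differences between the strains can make an allele more active than its partner. Imprinted genes are the classical exception: methylation set in the germ line leaves them active on the maternal or the paternal chromosome. Growth in 2i is known to lower DNA methylation across the genome of ESCs, and clonal lines can also keep an allele silent for many divisions without a sequence difference.

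The 3 TX 2i ESC libraries held 14481856 to 16591759 reads on genes, of which 17.7 to 18.2% overlapped a strain difference and were assigned to an allele. Members carried 1295938 to 1529600 allelic reads per library. All 8 ESC markers stood above 10 RPM (reads relative to the size of the library), whereas 6 of 12 fibroblast markers were below 1 RPM and 4 of them, Col3a1, Prrx1, Dcn and Lum, had no read. The summed fibroblast level was 42.9 to 56.6 RPM, against 29100 to 39800 in Female MEFs. Over the 11 chromosomes the share of maternal reads was 51.82% ± 0.27 (SD, n = 3), with single chromosomes between 50.25 and 53.72%. The median member lay at 51.6 to 52.0% in the 3 libraries. Intervals on shares are 95% Wilson intervals and, like the limits for alleles without a read, cover counting error only.

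Many members were read unequally from their alleles in TX 2i ESCs. The maternal share of each gene was set against the median member of its library, as a log2 ratio of BL6 to CAST reads, and tested with limma. Of 4841 members, 1519 passed an adjusted p of 0.05 (31.4%), 809 toward BL6 (16.7%) and 710 toward CAST (14.7%). A difference of at least 2-fold was present in 501 of them (10.3%), 277 toward BL6 (5.72%) and 224 toward CAST (4.63%). Measured against equal reads of both alleles rather than the median member, the split was 1050 to 542, or 66.0% toward BL6 instead of 53.3%. The median size of the log2 ratio over all members was 0.28. Biological replicates of 1 line stand behind these tests, and without replicate 1 the count was 991.

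By the mean share of the 3 libraries, 3672 members (75.9%) were balanced, between 40 and 60% maternal. A slight bias, up to 70% or down to 30%, was present in 520 members toward BL6 and 279 toward CAST. Graded bias, beyond 70 or 30% without reaching 90 or 10%, was present in 189 members toward BL6 and 120 toward CAST. Full bias, at least 90% or at most 10%, was present in 36 members toward BL6 and 25 toward CAST. These classes rest on the same shares as the test, so that all members of graded and full bias passed it is no separate result. The limits cut a continuous series: Acox3, at 90.09%, was just inside full BL6 bias and Tesc, at 89.13%, just outside, whereas Npc1 at 70.06% and Trmt112 at 69.94% flanked the lower limit of graded bias.

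**Figure D1:**
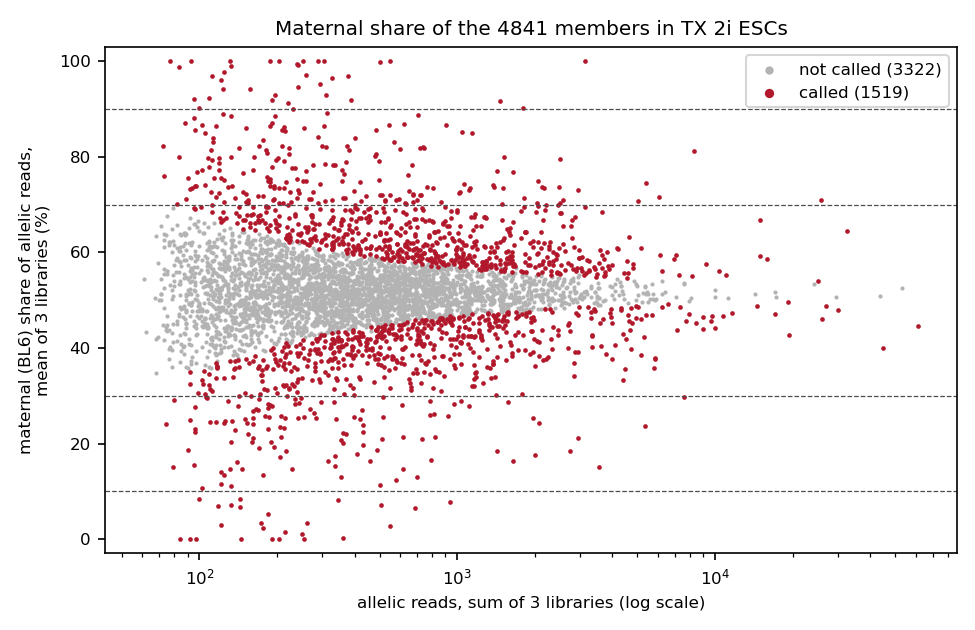
Mean maternal share of each of the 4841 members (vertical axis, %) against its allelic reads summed over the 3 TX 2i ESC libraries (horizontal axis, log scale). Red points are the 1519 members past the limma threshold, grey points the rest, and dashed lines mark 10, 30, 70 and 90%; members with more reads were called at shares closer to the median.

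Fully biased members had fewer allelic reads than balanced ones, with a median over the 3 libraries together of 225.5 for full BL6 bias and 185 for full CAST bias against 459. Fewer reads widen the spread of a share, and the part of depth in this difference was not tested. Only 27 of the 36 and 18 of the 25 fully biased members had an established gene symbol, the others being predicted genes, pseudogenes, RIKEN cDNA genes and 1 clone name.

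Among the genes of full BL6 bias, the predicted gene Gm11019 had the most reads, none of 3130 from CAST, and B4galt6 had the most of those with an established symbol. B4galt6, the lactosylceramide synthase on chromosome 18 (20684599 to 20746404, GRCm38), had maternal shares of 93.8% (interval 91.8 to 95.3), 91.8% (89.2 to 93.8) and 85.1% (81.8 to 88.0). All 3 libraries were far above the median member, by 3.20 on the log2 scale (standard error 0.16, limma adjusted p = 2.12e-11), although replicate 3 was lower than the other two. Both neurofilament genes of chromosome 14, which overlap on opposite strands in the annotation, were read almost wholly from BL6. Nefm, the medium chain, had shares of 99.6, 100 and 100%, and Nefl, the light chain, had 96.0, 98.2 and 96.7%. Neither stood at such a share in KSR-iPSCs, where the median over the libraries deep enough was 67.7% for Nefm (n = 4) and 74.0% for Nefl (n = 10).

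The remaining named genes of full BL6 bias have unrelated roles. Dpysl3, a regulator of the neuronal cytoskeleton, had shares of 95.1, 96.6 and 94.4% and a log2 ratio of 4.28 (standard error 0.21, limma adjusted p = 1.31e-11). Ephx2, the soluble epoxide hydrolase, had 95.9, 98.4 and 97.3%. Tpst1, a sulfotransferase of protein tyrosines, had 94.5, 92.0 and 89.3%. These 3 genes kept to a narrow range across libraries. Cyp2b23, a cytochrome P450, had 98.9, 100 and 90.4%, and Fam198b had 96.4, 96.8 and 90.9%. In both, replicate 3 was the lowest library. Rpl21, with 86.8, 96.2 and 92.0%, and H2-K1, a class I histocompatibility gene with 96.4, 95.2 and 87.2%, have close copies elsewhere in the genome, so the assignment of their reads is uncertain.

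No CAST read was counted in 10 members and no BL6 read in 7. Lrrc31 had 0 CAST reads of 288, which allows a CAST share of up to 1.04% and makes the BL6 allele at least 96.0-fold higher. Gc, the vitamin D binding protein, had 0 of 253, which allows up to 1.19%. Both were also wholly maternal in every KSR-iPSC library deep enough, 3 libraries for Lrrc31 and 12 for Gc. On the other side, Rftn1, which encodes the lipid raft protein raftlin, had 0 BL6 reads of 255, which allows up to 1.18% and makes the CAST allele at least 85-fold higher. Sytl3, a synaptotagmin-like protein of vesicle transport, had 0 BL6 reads of 191 in TX 2i ESCs and none in the 5 KSR-iPSC libraries deep enough to count. Papd4, a cytoplasmic poly(A) polymerase on chromosome 13 (93147400 to 93192283), had 0 BL6 reads of 145, which allows up to 2.07% and makes the CAST allele at least 48.3-fold higher.

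Among genes of full CAST bias with reads of both alleles, Naa11, a catalytic subunit of amino-terminal acetylation, had the most. Its maternal share was 4.97, 6.81 and 11.8%, and its log2 ratio was -3.75 (standard error 0.17, limma adjusted p = 7.33e-12). Sptlc1, a subunit of the serine palmitoyltransferase that starts sphingolipid synthesis, had shares of 3.57, 1.61 and 1.70% and a log2 ratio of -5.62 (standard error 0.28, limma adjusted p = 2.22e-11). Otx2, a transcription factor of early epiblast and forebrain, had 4.69, 2.50 and 2.90%. All 3 libraries of these genes were far below the median member. Mnd1, a factor of meiotic recombination, had 4.11, 5.10 and 1.10%, and Klb, the co-receptor beta-klotho, had 3.41, 0 and 0%. Tub had 6.19, 11.7 and 6.52%, the cation channel gene Trpm1 had 6.51, 12.5 and 2.41%, and Pot1b, a telomere-binding protein, had 5.77, 6.67 and 12.9%. Gstp2, with 6.64, 6.95 and 5.73%, is a near-identical neighbour of Gstp1, so the share of each is uncertain.

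In the other cells of the cross, most fully biased genes lay on the same side of 50%, at a less extreme share. Of the 36 genes of full BL6 bias, 23 to 26 were deep enough in each KSR-iPSC line, all of them were on the BL6 side, and 11 to 15 per line were again at 90% or more. In Female MEFs 16 were deep enough, all above 50%, but 7 were balanced and 6 were full, with a median of 62.6%. Of the 25 genes of full CAST bias, 12 to 16 were on the CAST side in each KSR-iPSC line, out of 16 to 18 deep enough. In Female MEFs 5 of 7 were. Because the classes were set on the TX 2i ESC shares, a more moderate share elsewhere is a description and no test.

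**Figure D2:**
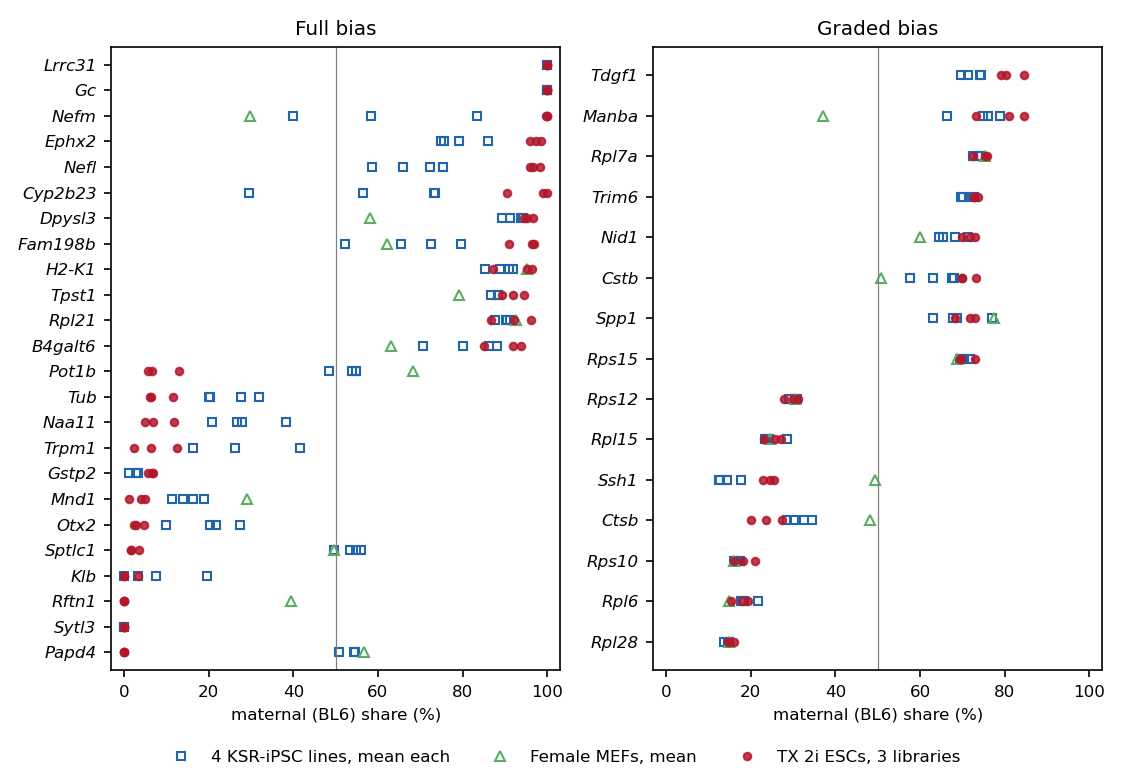
Maternal share (horizontal axis, %) of the named genes of full bias (left) and graded bias (right). Red points are the 3 TX 2i ESC libraries, blue squares the means of the 4 KSR-iPSC lines and green triangles the mean of Female MEFs, each over libraries with at least 20 allelic reads and left out where none had them; Sptlc1, Papd4 and Pot1b had no KSR-iPSC mean under 48%, and Dpysl3, Ssh1 and Manba differed between MEFs and pluripotent cells.

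Graded bias included genes with many allelic reads, whose shares had narrow intervals. Spp1, the secreted phosphoprotein osteopontin on chromosome 5 (104435118 to 104441050), had shares of 73.0% (interval 72.1 to 73.9), 68.2% (67.2 to 69.1) and 71.7% (70.7 to 72.7). Its log2 ratio was 1.19 (standard error 0.04, limma adjusted p = 2.90e-13). Tdgf1, the Nodal co-receptor Cripto on chromosome 9 (110939610 to 110946158), had 79.0, 84.6 and 80.2%, a 4.08-fold preference for BL6 (limma adjusted p = 2.40e-13). The interval of Spp1 in replicate 2 lay below those of the other libraries. Nid1, a basement membrane protein, had 72.9, 71.8 and 70%. Trim6, a ubiquitin ligase, had 73.7, 72.8 and 72.8%, and Cstb, an inhibitor of cysteine proteases, had 69.8, 69.9 and 73.2%. Manba, the lysosomal beta-mannosidase, had 84.6, 73.3 and 80.9%.

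Toward CAST, Ctsb, the lysosomal protease cathepsin B, had shares of 23.6, 27.5 and 20.0% and a 3.48-fold preference (limma adjusted p = 2.60e-12). Ssh1, a phosphatase of cofilin, had 25.4, 23 and 24.7%. All 3 libraries of both genes were on the same side of 50% by their intervals, as the choice of named genes required.

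For graded genes as a whole, the median share in KSR-iPSC lines was 69.2 to 71.3% where TX 2i ESCs were on the BL6 side and 32.0 to 34.4% where they were on the CAST side. In Female MEFs it was 59.7 and 48.5%, and 58 of the 89 CAST-biased genes deep enough there were balanced.

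The ribosomal proteins were the group with the largest proportion of calls among the lists of at least 18 members. Of 46 members, 35 passed the threshold (31.4% of all members did), 16 toward BL6 and 19 toward CAST, with a median size of the log2 ratio of 0.43 against 0.28 over all members. At least 2-fold were 4 toward BL6, Rpl21, Rpl7a, Rpl29 and Rps15, and 7 toward CAST, Rpl28, Rps10, Rpl6, Rpl17, Rps23, Rpl15 and Rps12. Rpl28 had shares of 16, 14.6 and 15% in TX 2i ESCs, 11 to 17.4% in KSR-iPSC libraries and 14.1 to 15.9% in Female MEFs. Rps12 had 27.8, 30.0 and 31.1%, against 26.9 to 31.7% and 28.4 to 31.5%. The libraries of the 3 cell types overlapped for both. Rps23, in contrast, had 17.6, 15.5 and 12.5% in TX 2i ESCs, below the 25.9 to 44.8% of KSR-iPSC libraries (difference of log2 ratios -1.58 with standard error 0.20, limma adjusted p = 4.40e-06). Of 45 ribosomal protein genes tested against KSR-iPSCs 6 differed, all lower in TX 2i ESCs, where 6.35% of all members tested differed and 3.56% were lower. Genes of this family have many processed copies, so how their reads were split between loci is uncertain. Members with more reads were called at smaller biases, and neither this list nor those below were matched in depth to all members.

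In the 3 other large families, calls were near the share of all members or below it. Of 135 zinc finger proteins 32 passed, 20 toward BL6 and 12 toward CAST, of 43 genes of the respiratory chain and ATP synthase 14 passed, and of 19 proteasome genes 6 passed. The extreme cases were Zfp28 with shares of 80.8, 83.7 and 92.6%, Ndufaf2, an assembly factor of respiratory complex I, with 20.0, 24.2 and 27.8%, and Psma8, a proteasome subunit of germ cells, with 100, 100 and 98.4%. Of 13 housekeeping genes 8 passed, where 31.4% of all members did, 4 in each direction and none by 2-fold. The one with the most allelic reads, Hsp90ab1, a cytosolic chaperone, had 45.6, 44.3 and 44.2% and a log2 ratio of -0.41 (standard error 0.02, limma adjusted p = 9.17e-11). Against the same 31.4%, 4 of 7 glutathione transferases passed, 1 toward BL6 and 3 toward CAST, and of 4 genes of the major histocompatibility region 2 passed, both toward BL6.

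Pluripotency genes were more often biased toward BL6 than toward CAST. Of 22 on the list 18 were members and 11 passed the threshold, 9 toward BL6 and 2 toward CAST, where 16.7 and 14.7% of all members did. Only Tdgf1, Spp1 and Otx2 reached 2-fold. Sox2, a core factor of the pluripotency network, had shares of 60.4, 59.4 and 62.8% (log2 ratio 0.54, standard error 0.06, limma adjusted p = 6.18e-07), and Fgf4, the growth factor that acts through MEK in ESCs, had 65.2, 66.2 and 61.6%. Tet1, which oxidises methylated cytosine, had 64.1, 61.5 and 61.1%. Dppa5a, an RNA-binding protein of ESCs on chromosome 9 (78367052 to 78368177), had 41.5, 42.4 and 44.1% and was the second gene called toward CAST, with Otx2. For Pou5f1, with 51.2, 61.3 and 52.7%, no bias was detectable at 294 allelic reads (limma adjusted p = 0.507). Sall4, Rif1 and Utf1 were within 4 points of 50% in every library and did not pass.

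Genes of the DNA methylation machinery had small biases, all but 1 under 2-fold. Of 16 on the list all were members and 8 passed (31.4% of all members did), 3 toward BL6 and 5 toward CAST, with a median size of the log2 ratio of 0.28, the same as over all members. Dnmt1, the maintenance methyltransferase, had 45.2, 46.6 and 45.3% (log2 ratio -0.35, standard error 0.06, limma adjusted p = 7.42e-05), and Dnmt3b had 49.0, 53.6 and 54.6% without passing. The largest ratio was that of Zfp57, a zinc finger protein that guards imprints, with 72.4, 65.5 and 76.3% (2.35-fold, limma adjusted p = 4.72e-05). Among 4 members linked to the pathways that 2i blocks, Ccnd1, which encodes cyclin D1, was the only call, with 28.6, 30.5 and 25.5% (log2 ratio -1.45, standard error 0.11, limma adjusted p = 9.04e-09). The libraries of Ccnd1 all lay below the KSR-iPSC libraries, which ranged from 34.7 to 50.1%.

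The listed imprinted genes were read from both alleles in TX 2i ESCs. For part of them this is no difference from Female MEFs. There, 5 of 7 maternally expressed members and 1 of 6 paternally expressed ones were read from both alleles too. Of 7 members listed as expressed from the paternal allele, none was below 30% maternal in TX 2i ESCs. Of the 4 that passed the threshold, 3 leaned toward the maternal allele. Plagl1, a zinc finger regulator of growth, had maternal shares of 69.2, 68.5 and 67.5%, Peg3 had 66.9, 65 and 61%, and Sfmbt2 had 63.3, 69.2 and 66.7%. Impact, a regulator of translation, leaned toward the paternal allele with 32.0, 36.9 and 33.0%. Snrpn, of the Prader-Willi region, had 48.1, 52.1 and 53.1%, Peg12 had 46.2, 31.0 and 50.0%, and Mcts2 had 45.2, 30.4 and 56.8%, none past the threshold. Of 7 members listed as expressed from the maternal allele only Cd81 passed, with 63.7, 59.0 and 57.4%. H19, the maternally expressed non-coding RNA, had 56.1, 48.8 and 48.1%, and Igf2r, the receptor that clears Igf2, had 51.4, 45.4 and 38.8%.

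In Female MEFs 5 of 6 paternally expressed members, but only 2 of 7 maternally expressed ones, were read almost wholly from 1 allele in every library, and the difference from TX 2i ESCs was tested. All 6 paternally expressed genes that could be tested had a higher maternal share in TX 2i ESCs, as did 6.04% of all members tested. In Female MEFs Peg3 had 0 maternal reads of 1434, Snrpn 0 of 136 and Peg12 0 of 132, and Plagl1 stood at 0.822% ± 0.647 (SD, n = 3). Impact stood at 3.58% ± 0.705 (SD, n = 3) there, or 3.80 lower than in TX 2i ESCs on the log2 scale of the ratio (standard error 0.16, limma adjusted p = 6.66e-09). Sfmbt2, at 38.6% ± 4.54 (SD, n = 3), was read from both alleles in MEFs and lower than in TX 2i ESCs (limma adjusted p = 0.000969). Of the 7 maternally expressed genes 3 had a lower maternal share in TX 2i ESCs, as did 6.18% of all members tested: H19, at 99.8 to 100% in the MEF libraries, Igf2r, at 99.4 to 99.9%, and H13, at 64.6 to 65.4%. The other 4 were read from both alleles in MEFs too and did not pass. Gnas had 48.1 to 51.9%, Ube3a 43.2 to 49.1%, Tssc4 47.7 to 54.1% and Cd81 63.6 to 67.5% there. Against KSR-iPSCs, 1 of 5 paternally expressed genes tested was different (6.35% of all members tested were), Snrpn, whose share was 3.48 to 48.7% over the 12 KSR-iPSC libraries (limma adjusted p = 2.36e-06). Replicate 1 of TX 2i ESCs, at 48.1%, was below the highest of them. The lines were unlike each other, as the paper reports biallelic Snrpn in F KSR2 and monoallelic Snrpn in M KSR5. The p-value does not measure this spread between lines. Among the 7 maternally expressed genes, H19 was farthest from KSR-iPSCs, whose libraries ranged from 33 to 72.5%, without passing (difference of log2 ratios -0.41, limma adjusted p = 0.553).

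**Figure D3:**
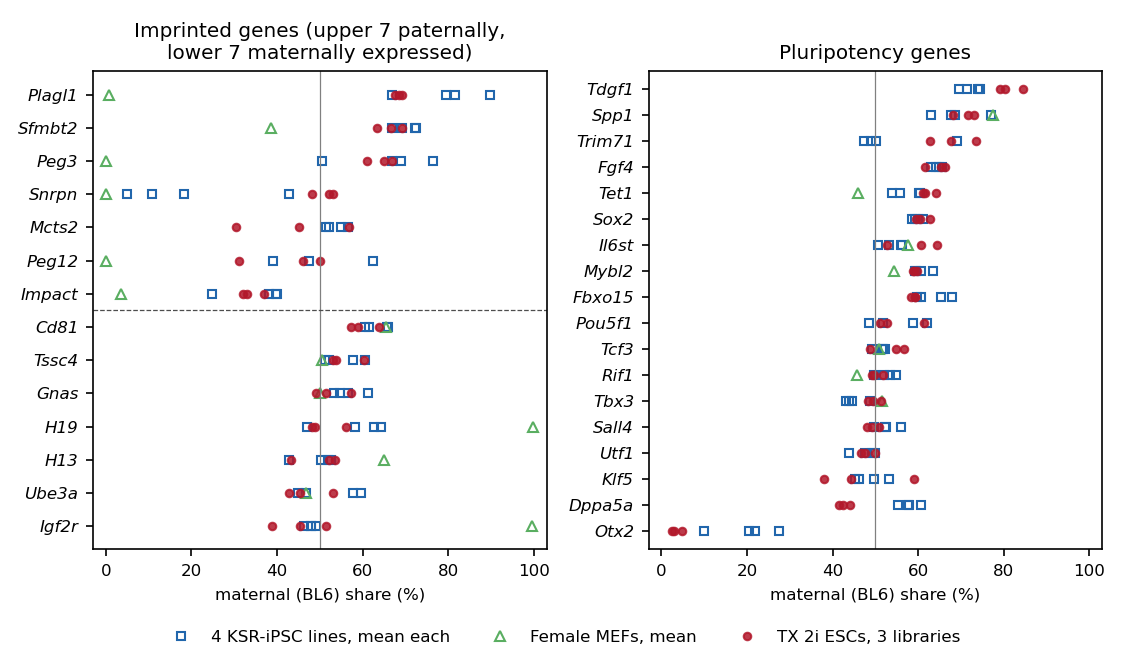
Maternal share (horizontal axis, %) of the listed imprinted genes (left) and the listed pluripotency genes (right) among the members. Red points are the 3 TX 2i ESC libraries, blue squares the means of the 4 KSR-iPSC lines and green triangles the mean of Female MEFs; Peg3, Snrpn, Peg12 and Plagl1 stood at or near 0% and H19 and Igf2r near 100% in MEFs, and all 6 were between 30 and 70% in TX 2i ESCs.

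To ask whether a bias was shared by the other pluripotent cells of the cross, each member was compared between TX 2i ESCs and the 4 KSR-iPSC lines, averaged over lines. The error of this test comes from replicates within a line, so its p-values do not measure the spread between lines. Of 4155 members tested, 264 differed (6.35%), 116 with a higher maternal share in TX 2i ESCs (2.79%) and 148 with a lower one (3.56%). At least 2-fold were 98 (2.36%), 37 higher (0.89%) and 61 lower (1.47%). By the log2 ratio, the libraries of the groups did not overlap for 177 members (4.26%). The counts of 264 and 177 include Gm11019, which was read wholly or almost wholly from BL6 in both groups. Its ratio rests on the value at which an allele without reads is held. How many other calls are of this kind was not counted. When F KSR2 and F KSR4, of the sex of TX 2i ESCs, were the only lines used, 220 differed, 91 higher and 129 lower. TX 2i ESCs differ from the KSR-iPSCs in origin and medium, and these cannot be told apart. Without TX 2i ESC replicate 1 the count was 172.

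The largest differences were genes that KSR-iPSCs read from both alleles and TX 2i ESCs from CAST. The share of Papd4 was 0, 0 and 0% in TX 2i ESCs and 39.4 to 63.9% in the 12 KSR-iPSC libraries, with a median of 54.5%. That of Sptlc1 on chromosome 13 (53332716 to 53377365) was 1.61 to 3.57% against 38.7 to 66.4%, with a median of 53.2% (limma adjusted p = 4.03e-13). No TX 2i ESC library came near the KSR-iPSC range for either gene, and the choice of named genes required libraries that did not overlap. Pot1b, with 5.77 to 12.9% against 36.5 to 66.7%, differed by -3.70 on that scale (standard error 0.36, limma adjusted p = 7.97e-08). F2rl1, a protease-activated receptor on chromosome 13 (95511732 to 95525240), preferred CAST in TX 2i ESCs and BL6 in KSR-iPSCs. It had 23.3, 22.9 and 17.8% in TX 2i ESCs and 66.9 to 79.7% in KSR-iPSC libraries (difference of log2 ratios -3.23 with standard error 0.15, limma adjusted p = 6.72e-14). Otx2 had 5.13 to 32.0% in KSR-iPSC libraries, below 50% as in TX 2i ESCs but less extreme (difference of log2 ratios -2.67 with standard error 0.39, limma adjusted p = 3.41e-05).

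Read per allele, each of these genes had a lower BL6 level in TX 2i ESCs than in any KSR-iPSC line mean. The mean CAST level was above the line means for Papd4, Sptlc1 and Pot1b and below them for F2rl1 and Otx2. For Pot1b and Otx2 this held for the mean and not for every library. The CAST allele of Pot1b had 3.11, 1.69 and 3.73 RPM in TX 2i ESCs against line means of 1.29 to 2.57. That of Otx2 had 3.87, 2.35 and 4.63 RPM against 3.72 to 11.6. For Papd4 the BL6 allele had 0 RPM in TX 2i ESCs and line means of 1.91 to 2.52 RPM in KSR-iPSCs. Its CAST allele had 3.10 ± 0.286 RPM (SD, n = 3) against 1.64 to 2.59, and its level over all reads was 55.9 ± 3.48 RPM against 60.0 to 62.7. For Sptlc1 the BL6 allele had 0.0854 ± 0.0361 RPM (SD, n = 3) against 2.81 to 3.21, while the CAST allele had 3.70 ± 0.292 against 2.16 to 2.83. For F2rl1 both alleles were lower in TX 2i ESCs, the BL6 allele at 2.79 ± 0.215 RPM (SD, n = 3) against 31.5 to 50.0 and the CAST allele at 10.4 ± 1.24 against 13.2 to 18.2. Most reads of Papd4 and Sptlc1 overlapped no strain difference, 52.7 of 55.9 RPM and 27.6 of 32.1 RPM in TX 2i ESCs. Their allelic levels rest on the remaining reads. All these levels are relative to reads on genes and were not tested. In bulk RNA fewer cells using an allele and less RNA of it per cell cannot be told apart.

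In the other direction, the maternal share of Ephx2 was 95.9 to 98.4% in TX 2i ESCs and 72.5 to 93.2% in KSR-iPSC libraries, a ratio higher by 3.24 on the log2 scale (standard error 0.29, limma adjusted p = 2.64e-08). Irak3, an inhibitor of interleukin-1 receptor signalling, had 96.8 to 100% against 66.7 to 95.0%, and Rnf165, a ubiquitin ligase, had 86.1 to 95.0% against 50.0 to 83.5%. Acox3, a peroxisomal acyl-CoA oxidase, had 84.3 to 93.1% against 61.9 to 82.5%. In these 4 genes the median of the KSR-iPSC libraries was on the BL6 side too. Lmo7, with 77.1 to 84.4% against 25.3 to 67.2%, was close to balance in KSR-iPSCs, with a median of 53.2%. Among pluripotency genes 4 of 17 tested differed, where 6.35% of all members did. Tdgf1, at 79.0 to 84.6% against 63.8 to 75.2%, and Trim71, an RNA-binding regulator of stem cells, at 62.9 to 73.5% against 42.3 to 71.3%, were higher, the libraries of Trim71 with an overlap. Dppa5a and Otx2 were lower. Dppa5a lay on opposite sides of 50%, at 53.5 to 63.8% in KSR-iPSC libraries and at 41.5 to 44.1% in TX 2i ESCs (difference of log2 ratios -0.88 with standard error 0.08, limma adjusted p = 1.39e-08).

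Chromosome 13 held more of these differences than any of the other 10 chromosomes. Of its 267 members tested 49 passed (18.4%), 42 of them with a lower maternal share in TX 2i ESCs. Those called higher include Gm11019, whose call is no difference in share. On the other chromosomes together 215 of 3888 passed (5.53%), 106 lower and 109 higher. The median log2 difference over chromosome 13 was -0.046, so the whole chromosome did not shift by the size of these genes. Against Female MEFs, where the same TX 2i ESC libraries are compared, 62 of 275 members of chromosome 13 passed (22.5%), 48 lower and 14 higher, against 11.5% elsewhere. Chromosome 13 was singled out after its values were seen, and no test was made of it.

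Of the 42 lower genes of chromosome 13, 25 lay in 3 stretches, among members that did not pass, and 17 lay outside them. A stretch from Riok1 to Sfxn1 (38036989 to 54108346) held 8 calls among 38 members tested, all lower, and included Tbc1d7, Gfod1 and Sirt5, neighbours with mean maternal shares of 16.4, 22.4 and 11%. From Vcan to Mrps27 (89655312 to 99415561), 15 of 37 passed, 12 lower. Among these Vcan, a matrix proteoglycan, stood at 18.7% and Iqgap2, a scaffold of the actin cytoskeleton, at 20.8%, whereas Wdr41, between them, was at 86.4% and was higher than in KSR-iPSCs. Gm11019, also called higher in this stretch, had a share of 100% in TX 2i ESCs and line means of 99.96 to 100% in KSR-iPSCs. Its call is no difference in share. With hardly any CAST read, its ratio follows the BL6 level, 66.9 RPM in TX 2i ESCs against line means of 39.0 to 55.0. The third stretch, from Trim23 to Ndufaf2 (104178797 to 108158625), had 5 calls among 10 members, all lower, with Ppwd1 at 23.9%. That all were lower depends on where the stretch was cut. Just before it lay the called genes Nln, which was higher, and 2410002O22Rik, which was lower. Ercc8, just after it, and Ssr1, just before the first stretch, were called lower too. The median shares of the 3 stretches were 47.4, 48.5 and 42.3%, so members near balance lay among the called ones. On chromosome 17, 4 of 5 members tested from Tbc1d5 to Pot1b (50733127 to 55712628) were lower, at a median share of 21.3% against 47.0% in KSR-iPSCs. On chromosome 9, 7 of 13 from Pdcd6ip to Stt3b (113651744 to 115310421) were higher, at 62.2 against 55.5%. The stretches were chosen after their values were seen.

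**Figure D4:**
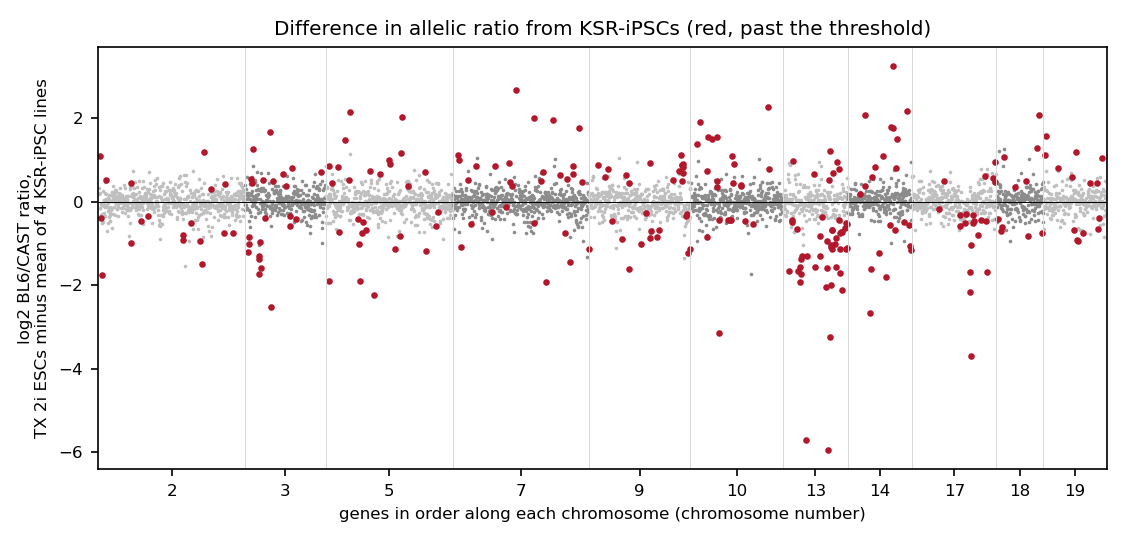
Difference of the log2 ratio of BL6 to CAST reads, TX 2i ESCs minus the mean of the 4 KSR-iPSC lines (vertical axis), for 4155 members in their order along each of the 11 chromosomes (horizontal axis). Red points passed the limma threshold; below 0 the maternal share was lower in TX 2i ESCs, as for 42 of the 49 red points of chromosome 13.

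Neighbouring members of full or graded bias were counted over all 11 chromosomes as well. Of 370 such members, 44 pairs that follow each other in the list of members leaned the same way and 12 leaned opposite ways. Runs of at least 3 were present at 4 places: Tbc1d7, Gfod1 and Sirt5 toward CAST, and toward BL6 Clu, Ephx2 and Ptk2b on chromosome 14, a run of 4 from Etfdh to Pdgfc on chromosome 3, and a run ending in Zfp553 on chromosome 7. These counts were not tested.

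Compared with Female MEFs, 524 of 4288 members differed (12.2%), 259 with a higher maternal share in TX 2i ESCs (6.04%) and 265 with a lower one (6.18%), and 261 by at least 2-fold (6.09%), 129 higher (3.01%) and 132 lower (3.08%). The group libraries did not overlap for 1237 members (28.8%). With only 3 libraries on each side, groups that do not differ separate more often than against the 12 KSR-iPSC libraries. This share is therefore not comparable with that against KSR-iPSCs. This comparison uses the same TX 2i ESC libraries as that with KSR-iPSCs, and so the lists are not independent. Both cell type and origin differ in it. Of the 5 largest differences in each direction, 6 were genes of the imprinted lists described above. These lists hold only part of the known imprinted genes, and whether the other 4 genes are imprinted was not examined. The others were Tnfrsf23, a decoy receptor, with 4.35, 0 and 4.65% in TX 2i ESCs and 70.1 to 75.2% in MEF libraries, Rftn1, with no BL6 read in TX 2i ESCs and 33.7 to 50.0% in MEFs, Papd4, with 47.3 to 70.8% in MEFs, and Irak3, with 45.7 to 80.5%. No TX 2i ESC library of these 4 genes overlapped the MEF range, as the choice of named genes required. In KSR-iPSC libraries Tnfrsf23 had 0 to 17.95%, on the CAST side as in TX 2i ESCs.

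Several genes of graded bias with many reads had another share in Female MEFs. The share of Manba was 35.8 to 38.9% there, on the other side of 50% (difference of log2 ratios 2.75 with standard error 0.20, limma adjusted p = 8.53e-07). Ctsb had 47.4 to 49.4% and Ssh1 47.6 to 50.5%. The KSR-iPSC libraries were on the same side as TX 2i ESCs for all 3 genes, with a median of 75.9% for Manba, 31.7% for Ctsb and 14.5% for Ssh1. Dpysl3, of full bias in TX 2i ESCs, had 56.7 to 60.1% in MEFs (difference of log2 ratios 3.90 with standard error 0.15, limma adjusted p = 2.67e-09) and a median of 93.4% in KSR-iPSC libraries.

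The maternal share of most members differed little between the 3 TX 2i ESC libraries, with a median range of 7.53 percentage points, which includes counting error. A test of homogeneity of the reads of both alleles, exact where the rarer allele had at most 200 reads, found 57 members to differ between libraries at an adjusted p of 0.05 (1.18%). The range reached 20 points in 21 of them (0.434%). At an unadjusted p of 0.05, 672 members (13.9%) differed. The test sets the libraries against counting error alone and takes each read as an independent molecule, so that any further variation between replicate libraries enters its p-values. Its counts depend on single libraries: 18, 9 and 30 members passed without replicate 1, 2 and 3 in turn. In the self-test on simulated reads, 54% of shifts by 20 points and 95% of shifts by 40 points were recovered.

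The widest drift was that of genes with few reads, which the test itself sets, because with few reads only a wide range can pass. Lime1, an adaptor of lymphocyte signalling on chromosome 2 (181380078 to 181383628), had maternal shares of 77.8% (interval 61.9 to 88.3), 56.4% (41.0 to 70.7) and 26.9% (13.7 to 46.1) on 36, 39 and 26 reads (exact test, adjusted p = 0.0338). Zfp846, a zinc finger protein, had 73.3, 34.8 and 22.7%, and Nup98, a nucleoporin, had 31.5, 25.0 and 70.6%. The library that stood apart was not the same in these 3 genes. Cd37, a tetraspanin, had 32.6, 76.3 and 55.2%, and Pygo1, a co-activator of Wnt signalling, had 30.4, 70.8 and 44.4%, with replicate 2 the highest in both. Vps37c, of the endosomal sorting complex ESCRT-I, had 70, 36.7 and 76.6%. Pigg, an enzyme of the GPI anchor, had 91.4, 52.4 and 61%, and Mypn, a protein of the sarcomere, had 55.8, 67.7 and 94.1%. Of these 8 genes only Pigg and Mypn were called biased, and the mean shares of Lime1, Cd37 and Pygo1 were near balance, at 53.7, 54.7 and 48.6%.

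**Figure D5:**
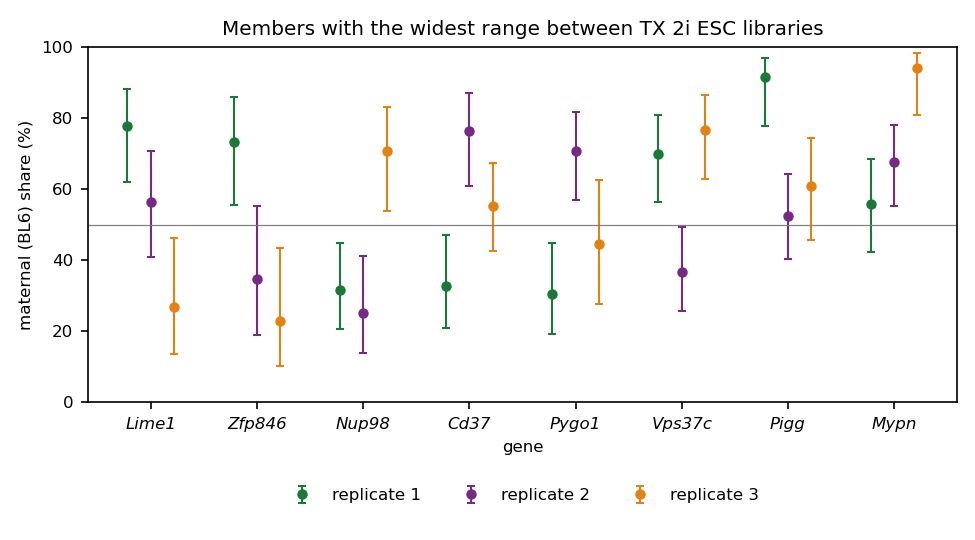
Maternal share (vertical axis, %) in each TX 2i ESC library of the 8 members with the widest range among those whose libraries differed, in order of the range. Bars are 95% Wilson intervals of the single library; the highest library was replicate 1 for Lime1, Zfp846 and Pigg, replicate 2 for Cd37 and Pygo1, and replicate 3 for Nup98, Vps37c and Mypn.

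For the genes with the most reads, a drift by a few points was enough to pass. Spp1 moved by 4.83 points (homogeneity test, adjusted p = 6.07e-09), Tdgf1 by 5.56 (adjusted p = 1.07e-05) and Eef1a1, an elongation factor of translation, by 2.87 (adjusted p = 0.0182). Larger steps were present among genes with 1794 to 5738 allelic reads. Ooep, an oocyte protein, moved by 11.8 points (adjusted p = 5.06e-07), Manba by 11.3 (adjusted p = 1.07e-05), Pfkp, a phosphofructokinase, by 9.38 (adjusted p = 0.000471), and Mfge8, a secreted glycoprotein, by 9.25 (adjusted p = 1.08e-06). B4galt6 moved by 8.66 points (adjusted p = 0.001) and Ctsb by 7.44 (adjusted p = 0.000765). Spp1, Tdgf1, Ooep, Manba, B4galt6 and Ctsb stayed on 1 side of 50% in the 3 libraries, whereas Eef1a1, Pfkp and Mfge8 did not. Klf5, a pluripotency factor, moved from 59.1 to 38.1%. Over all 57, the median range was 15.9 points, 30 had libraries on both sides of 50%, and 27 were also called biased. The highest library was replicate 1 in 26, replicate 2 in 14 and replicate 3 in 17.

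Drift was called in 33 of 3672 balanced members (0.899%), in 6 of 520 of slight BL6 bias (1.15%), in 2 of 279 of slight CAST bias (0.717%), in 9 of 189 of graded BL6 bias (4.76%), in 5 of 120 of graded CAST bias (4.17%), in 2 of 36 of full BL6 bias (5.56%), B4galt6 and Rpl21, and in 0 of 25 of full CAST bias, of which 3 had an unadjusted p under 0.05 in the homogeneity test. Tested the same way over the members deep enough, the other groups had 91 of 4568 in F KSR2 (1.99%), 519 of 4285 in F KSR4 (12.1%), 4 of 4593 in M KSR3 (0.0871%), 51 of 4580 in M KSR5 (1.11%) and 13 of 4288 in Female MEFs (0.303%). TX 2i ESCs were thus between M KSR5 and F KSR2 in this count, and the differences between groups were not tested.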

How the data were processed

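Libraries were strand-specific. The authors' notes name Trim Galore and HISAT2 2.1.0, with GRCm38 as the genome. For the allelic columns they assigned reads to the C57BL/6J or the CAST_EiJ genome, without those whose SNPs conflicted. They deposited log2 RPM per gene from SeqMonk, 4 columns for each of 18 libraries. Reads were recovered from the smallest step of each column, and 100% of the allelic values lay within 0.05 read of a whole number. A gene without reads is held at 0.9 read in the log2 values and counted as 0 in shares. TX 2i ESC libraries held 14481856 to 16591759 reads on genes, and shares of small counts are correspondingly imprecise. Loss of reads that map less well to either genome would shift shares, and its size was not tested. Gene positions are those of the table.

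For each library the BL6 minus CAST log2 value, less the median over members, was tested in R 4.3.3 with limma 3.58.1 (trend on allelic reads, Benjamini-Hochberg over all genes tested, threshold 0.05). BL6 and CAST columns come from the same library and were paired. In the comparisons with other groups a gene needed 20 allelic reads in each library. Drift was tested on recovered reads by the Fisher-Freeman-Halton exact test or, with more than 200 reads of the rarer allele, by chi-square, with scipy 1.17.1 in Python 3.11.15. On simulated data with 100 members changed by each size, 91% of 2-fold and 100% of 4-fold biases were recovered in the test of bias with 6 false calls, 92 and 100% against KSR-iPSCs with 11, and 71 and 100% against Female MEFs with 11.

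The members and gene lists were chosen with earlier results of these data known. Named genes were the 12 per direction of full bias and 8 of graded bias with the most reads, the list members (of the large families those called at 2-fold), the 8 widest drifts, and the 5 largest differences per direction whose libraries did not overlap in each comparison with another group. Values for 1 named gene are left out. Genes without an established symbol were passed over in naming. Other genes, Gm11019 included, were named after their values were seen, as neighbours, at a limit, by depth or for their drift. Alternatives were other null values and added reads, other read minimums, limma without trend, a quasi-binomial model, the pairing, the female KSR-iPSC lines alone and single libraries left out. The gene IDs of the table did not match the symbols for 1046 members, and symbols were used.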

Additional observations from a re-analysis of the deposited data

Results flagged for a closer look

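Differences between TX 2i ESCs and another group of the same cross were tested as such, and 264 members differed from KSR-iPSCs and 524 from Female MEFs by limma. Against KSR-iPSCs the named log2 differences were 3.24 for Ephx2, 2.27 for Irak3, 2.18 for Lmo7, 2.14 for Acox3 and 2.07 for Rnf165, and -5.94 for Papd4, -5.71 for Sptlc1, -3.70 for Pot1b, -3.23 for F2rl1 and -2.67 for Otx2. Against Female MEFs they were 9.88 for Peg3, 8.39 for Plagl1, 5.71 for Snrpn, 5.13 for Peg12 and 4.66 for Irak3, and -10.08 for H19, -8.86 for Igf2r, -6.35 for Tnfrsf23, -6.16 for Papd4 and -5.94 for Rftn1. Where an allele had no read in a library, the value rests on the 0.9 read at which the table holds it and is no bound. With 3 libraries, no group could be tested for a single library that stands apart.

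Outside the 11 chromosomes, 2 chromosomes were far from balance in TX 2i ESCs. The maternal share of the summed reads was 32.38% on chromosome 4 (mean of 27.7, 31.9 and 37.5% in replicates 1, 2 and 3) and 34.9% on chromosome 16 (34.9, 34.8 and 35.0%). In Female MEFs chromosome 4 stood at 52.5 to 52.8% and chromosome 16 at 50.1 to 50.5%. Chromosome 8 was nearer to balance in TX 2i ESCs but differed between libraries, with 52.4, 54.4 and 57.3% in replicates 1, 2 and 3. That is a range of 4.85 points, against at most 0.97 on the 11 chromosomes. These chromosomes entered no comparison.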

How the results depend on the processing

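The count of biased members was 950 by limma without trend, 638 without pairing of the alleles by library (no replicate block), and 991 to 1289 without 1 replicate. The other alternatives gave 1367 to 1738. Against KSR-iPSCs the count was 172 to 180 without 1 TX 2i ESC replicate, and 244 without M KSR5 replicate 3, an alternative chosen after seeing the data. Against Female MEFs it was 329 without trend. Drift calls fell to 9 to 30 without 1 replicate. Full bias held 37 members at 95 and 5% and 31 with at least 50 reads per library, against 61. Graded bias held 1108 at 60 and 40% and 189 with at least 50 reads, against 309. The cause of these changes was not tested where fewer libraries or genes do not set it. With the replicate number as a block, 262 members differed from KSR-iPSCs and 523 from Female MEFs. Deviations of libraries with the same number correlated at -0.069 to 0.123. These deviations include counting error, so they do not settle whether such libraries share more than a number.

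No named gene changed direction under the alternatives. In the test of bias 1618 of 1696 values stayed on their side of the threshold, 68 lost and 10 gained the call, and all 92 and 75 values of the 2 comparisons with other groups stayed. Of 32 values for the 8 named drifts, 18 lost the call. Shares rest on the 17.7 to 18.2% of reads with a strain difference, and on simulated reads 54% of drifts by 20 points were recovered.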

Other observations

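Some further members had allelic shares that differed between TX 2i ESCs and another group. Thy1, a fibroblast surface marker and the only one of 12 among the members, had maternal shares of 55.8, 60.2 and 66.7% in TX 2i ESCs and 95.1 to 97.3% in Female MEFs (difference of log2 ratios -4.17 with standard error 0.22, limma adjusted p = 4.54e-08). Nnt, the mitochondrial transhydrogenase that C57BL/6J animals carry with a deletion, had 52.7, 51.2 and 50.5% in TX 2i ESCs and 33.0 to 35.1% in Female MEFs (difference of log2 ratios 1.03 with standard error 0.17, limma adjusted p = 0.000997). In KSR-iPSC libraries Nnt ranged from 28.1 to 52.9%, and the difference from TX 2i ESCs did not pass. Spry2, a target and inhibitor of the MEK pathway, is on the list, described above, of genes linked to the pathways that 2i blocks. Its shares were 61, 57.1 and 55.1% in TX 2i ESCs and 62.3 to 74.6% in KSR-iPSC libraries, so that the groups did not overlap.

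Reads of the mitochondrial genome were 99.98% BL6 in TX 2i ESCs, the strain of the mother. No histone gene and no endoderm marker on the lists was deep enough to be a member.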
